A study of Homo sapiens with 6 samples.

Results

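The messages of 35 autophagy machinery genes were measured in the cell line Panc-1, which derives from a human adenocarcinoma of the pancreas, with and without TGFβ. The 35 genes were listed by role, from the kinase complex that starts autophagy to the receptors that bring cargo to it. All probe sets of the array annotated to 1 gene of the list and to no other gene were taken, which gave 89 of the 54613 probe sets that are not controls, and 35 of 19777 genes. Each value below is a log2 signal, and a gene's value is the mean over its probe sets. Dim probe sets, those whose mean stayed under a signal of 100 (log2 6.64) in TGFβ and untreated cells alike, were removed first. The study's methods apply the same kind of limit. It kept 61 probe sets and 34 members. The 1 member without a value past the limit was ATG4D, one of the 4 ATG4 proteases, at 6.66, 6.59 and 6.67 on the TGFβ arrays, against 6.44, 6.52 and 6.45 on the untreated arrays.

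The TGFβ group held 3 arrays of cells given 5 ng/mL porcine TGFβ for 48 h, and the untreated group held 3 arrays of cells in plain medium. The dose is that of the labels; the study's methods give it in nM, and which unit is right is not settled here. Both groups were kept without serum for 24 h before, so the untreated cells were starved of serum too. The series' design text says that the experiment was done 3 times. No vehicle is named for the untreated cells, and all arrays come from 1 cell line.

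Macroautophagy encloses a portion of cytoplasm in a double membrane, the autophagosome, and delivers it to the lysosome. A kinase complex around ULK1 starts the process, and a lipid kinase complex around PIK3C3 and BECN1 marks the membrane with phosphatidylinositol 3-phosphate. ATG9A vesicles and the lipid channels ATG2A and ATG2B then let the membrane grow. Proteins of the ATG8 family, LC3 and the GABARAPs, are attached to its lipids by enzymes that resemble those of ubiquitin, and cargo receptors bind to them. Lack of serum or amino acids is a well known inducer of autophagy, and much of its control acts on proteins rather than on messages. The arrays measured messages only, not autophagic flux.

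The cells carried the marks of the treatment. COL1A1, a chain of type I collagen, averaged 10.6 with TGFβ and 7.55 untreated (log2 signal), PMEPA1 averaged 11.6 and 9.03, the inhibitory SMAD7 8.52 and 7.45, and CDH1, the gene of E-cadherin, 5.56 and 7.58. All 4 passed the test, and the CDH1 change of -2.02 was -1.19 with dim probe sets kept. Of 6 ductal and epithelial markers, 5 were past the signal limit and 3 of them were lower with TGFβ (KRT8, KRT18 and EPCAM). KRT7 (0.24, SE 0.089, adjusted p = 0.0569) and SOX9 (0.14, SE 0.057, adjusted p = 0.0847) did not pass, and KRT19 was under the limit in both groups (4.48 with TGFβ and 5.14 untreated). The summed linear signal of the 6 was 6257 with TGFβ and 13290 untreated. All 5 leukocyte, 5 endothelial and 4 acinar or islet markers with values were under the limit in both groups, between 3.55 and 5.72. The 3′ minus 5′ difference of the ACTB control probe sets, a sign of RNA quality, was 0.335 ± 0.060 with TGFβ and 0.554 ± 0.031 untreated (log2, SD, n = 3), and for GAPDH -0.028 ± 0.023 and -0.0096 ± 0.0096. The part of these shifts in the results below was not tested. Array medians lay between 5.14 and 5.21.

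With TGFβ, 12 of the 34 measured members rose and 13 fell, and 9 did not pass the test (limma with the replicate number as a block, adjusted p under 0.05 over 10115 genes). ULK1 rose more than 3-fold, and NBR1, ATG2A and ATG101 changed by about 1.5-fold or more. The share of members called was 73.5%, against 58.7% of all genes tested, and no test of that difference was made. Among all genes 27.7% were higher and 31.0% lower. Members had a median log2 fold change of -0.039, with -0.013 over all genes, and the median size regardless of sign was 0.28, with 0.21 over all genes. Changes of at least 1.5-fold that passed were found in 4 members, against 13.4% of all genes. The groups did not overlap for 27 of 34 members, against 68.2% of all genes. Without replicate 2, and also without replicate 3, the members that rose numbered 7, and 11 and 13 fell. The share of members called was 52.9% and 58.8% there, against 42.3% and 46.5% of all genes. Of members 20.6% rose in both cases, against 20.7% and 22.6% of all genes. TGFβ array 1 was the highest of its group for 22 of the 34 members, and untreated array 3 for 21, with median deviations from the group mean of 0.063 and 0.026. This order was not counted over all genes, so it is not a result about the members. Because an array averages a whole culture, a lower message per cell and fewer cells with the message cannot be told apart.

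**Figure D1:**
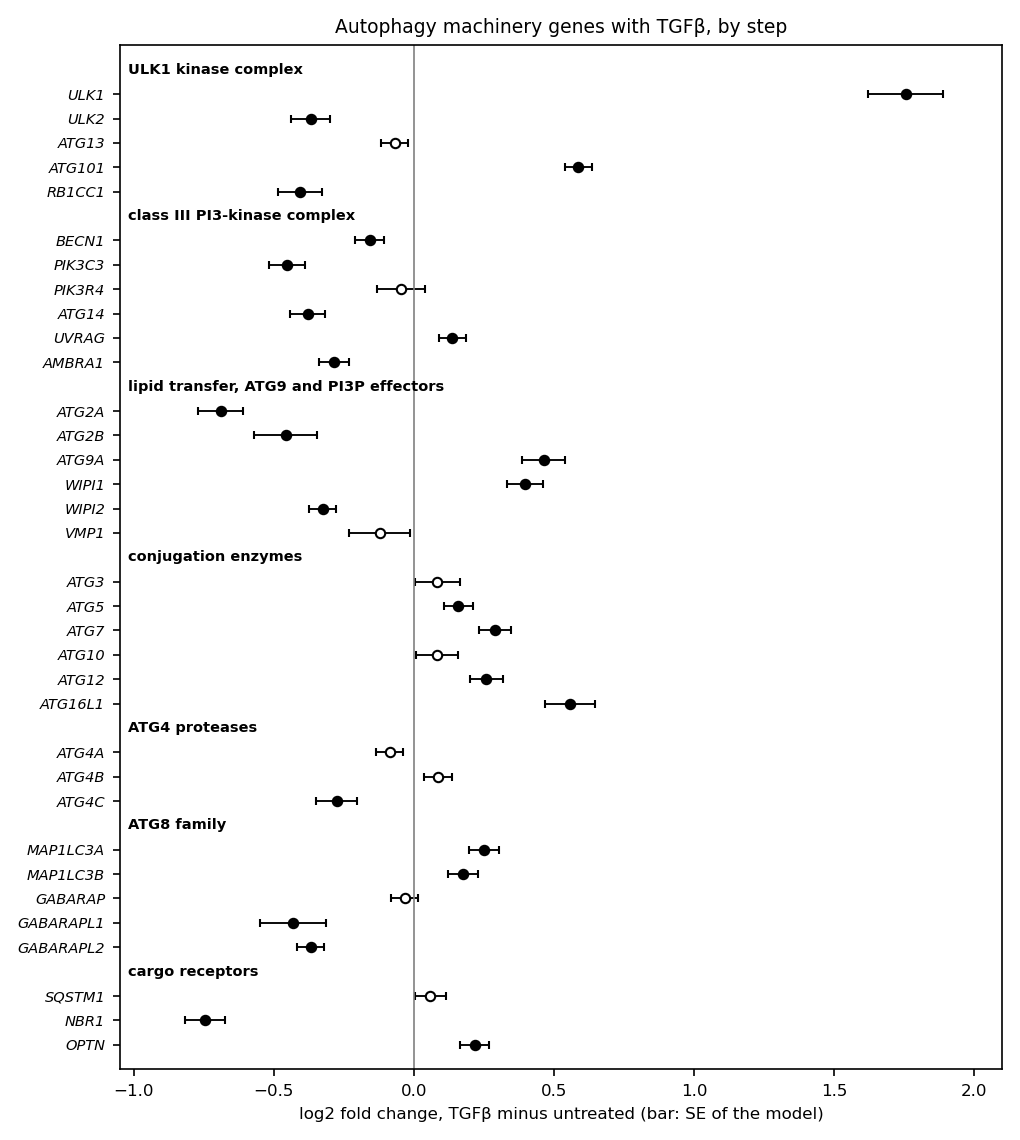
Log2 fold change of the 34 measured members (horizontal axis, TGFβ minus untreated, n = 3 arrays per group), in blocks by step of autophagy, with the SE of the model as bars and filled points where adjusted p was under 0.05. ULK1 stands at 1.76, all 6 genes in the block named conjugation enzymes lie above 0, and 5 of the 6 genes of the lipid kinase complex lie below 0.

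The ULK1 complex held the largest change of the list and moved in both directions, with 2 of 5 genes higher and 2 lower. Among all genes tested 27.7% were higher and 31.0% lower. ULK1 (Entrez 8408) is the kinase that starts autophagosome formation. Its log2 signals were 10.22, 9.77 and 9.95 on the TGFβ arrays, against 8.07, 8.04 and 8.55 on the untreated arrays. All TGFβ arrays lay above all untreated ones, with a gap of 1.21, wider than the range of either group. ULK1 was 3.38-fold higher (log2 fold change 1.76, SE 0.13, adjusted p = 0.000146), and 55 of the 10115 genes rose further. It rests on 1 probe set, and its change stayed between 1.56 and 1.94 over the 13 alternatives fitted with limma. The paired test of the methods gave it an unadjusted p of 0.0149, the form the methods use, and an adjusted p of 0.0607.

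ULK2 (Entrez 9706), the paralogue of that kinase, moved the other way. It had 8.23, 8.01 and 8.11 on the TGFβ arrays, against 8.43, 8.39 and 8.63 on the untreated ones. The groups did not overlap, and the difference was -0.37 (SE 0.070, adjusted p = 0.0052), with all 3 of its probe sets past the limit lower. ATG101 (Entrez 60673) binds and stabilises ATG13 in the complex. Its signals of 10.93, 10.98 and 10.97 with TGFβ stood against 10.33, 10.37 and 10.42 untreated, a narrow spread in both groups. ATG101 rose by 0.59 (SE 0.049, adjusted p = 0.000206).

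RB1CC1 (Entrez 9821), also called FIP200, is the scaffold of the complex. It had 10.29, 9.99 and 10.15 on the TGFβ arrays, against 10.48, 10.52 and 10.66 on the untreated ones, with no overlap. The log2 fold change was -0.41 (SE 0.078, adjusted p = 0.00539), from probe sets at -0.31 and -0.51. ATG13, the adaptor between the kinases and the scaffold, did not pass at -0.068 (SE 0.048, adjusted p = 0.271), although 1 of its 3 probe sets was lower (-0.24, adjusted p = 0.0187).

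**Figure D2:**
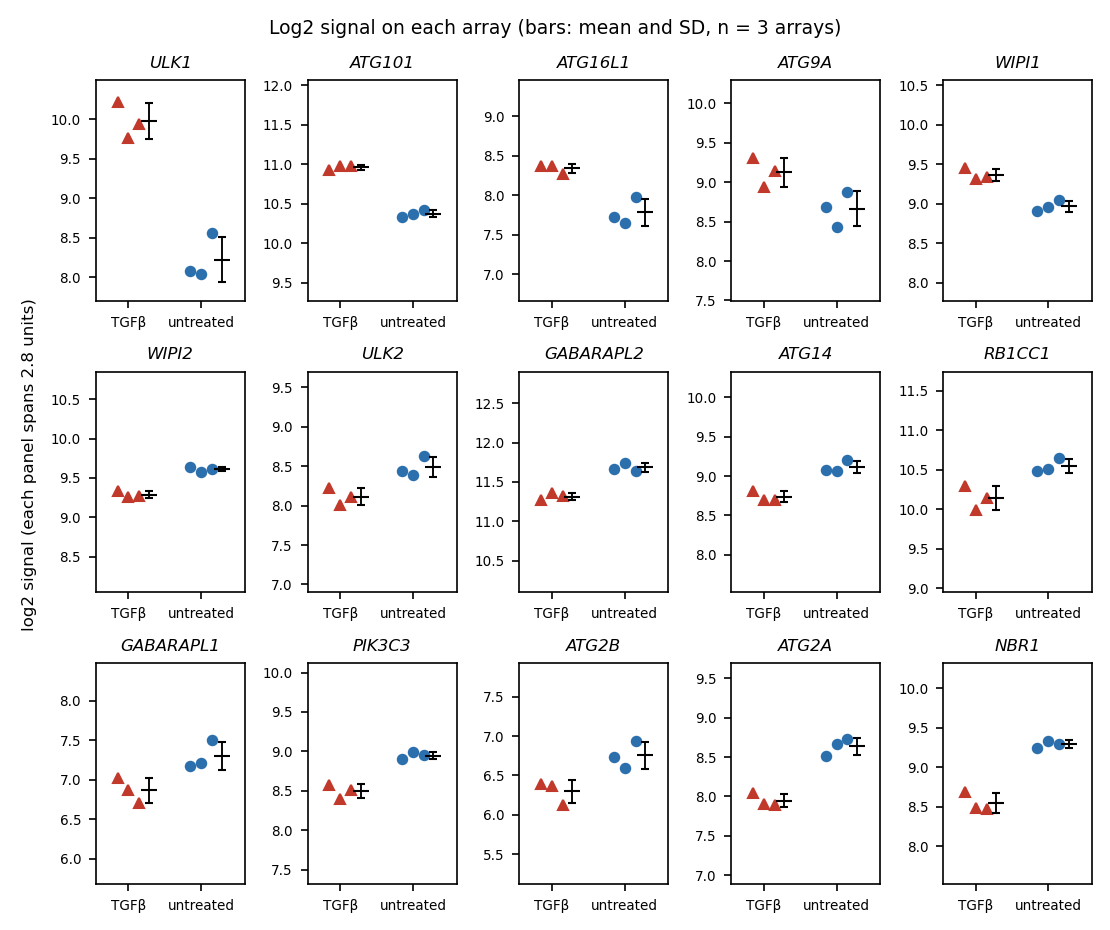
Log2 signal on each array (vertical axis, 2.8 units in every panel) for the 15 members that passed the test with a log2 fold change of at least 0.3 in size, from the largest rise to the largest fall. Red triangles are the 3 TGFβ arrays and blue circles the 3 untreated arrays, with mean and SD beside them. The members shown were also chosen for moving alike in all 3 same-numbered pairs. The groups overlap in no panel, which this choice favours, and 68.2% of all genes did not overlap.

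In the class III lipid kinase complex, 4 of 6 genes fell and 1 rose, against 31.0% and 27.7% of all genes. PIK3C3 (Entrez 5289), the catalytic subunit, had 8.57, 8.40 and 8.51 on the TGFβ arrays, against 8.90, 8.99 and 8.95 on the untreated arrays. The groups were apart, and PIK3C3 was 1.37-fold lower (log2 fold change -0.45, SE 0.064, adjusted p = 0.0016). Of its 7 probe sets, 1 was past the limit. Dim ones with larger differences were at -1.17, -1.31 and -0.50. Their means were 4.19, 3.86 and 4.47 with TGFβ, and 5.36, 5.16 and 4.96 untreated. The remaining dim ones differed by 0.007 to 0.072.

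ATG14 (Entrez 22863) directs the complex to the site where autophagosomes form. Its signals were 8.82, 8.70 and 8.69 with TGFβ, against 9.08, 9.06 and 9.20 untreated, again without overlap. The fall was 0.38 on the log2 scale (SE 0.062, adjusted p = 0.0029). UVRAG, which takes the place of ATG14 in another form of the complex that serves endosomes, was higher by 0.14 (SE 0.048, adjusted p = 0.0465). This call was lost under 6 of 13 alternatives, with adjusted p up to 0.227.

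BECN1, the regulatory core of the complex, fell by 0.16 (SE 0.051, adjusted p = 0.0379), a call lost under 4 of 12 alternatives (adjusted p up to 0.22). AMBRA1, which binds BECN1, fell by 0.29 (SE 0.055, adjusted p = 0.00531), but differed by -0.084 with dim probe sets kept (adjusted p = 0.335), where 3 more enter its mean. With its brightest probe set alone the difference was -0.21 (adjusted p = 0.0511). Its other probe set past the limit entered through the untreated group alone (6.48 with TGFβ and 6.85 untreated). PIK3R4, the membrane anchor of the complex, had 8.69, 8.33 and 8.41 with TGFβ, against 8.49, 8.50 and 8.58 untreated. The groups overlapped (-0.046, SE 0.085, adjusted p = 0.668), and the first TGFβ array was the highest of all 6. Without replicate 1 the difference was -0.17 (adjusted p = 0.0225), and it was 0.014 and 0.018 without replicates 2 and 3.

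Among the genes of membrane growth, 2 of 6 rose and 3 fell, against 27.7% and 31.0% of all genes. Both ATG2 genes, whose proteins channel lipids into the growing membrane, were lower. ATG2A (Entrez 23130) had 8.05, 7.90 and 7.90 with TGFβ, against 8.52, 8.67 and 8.73 untreated. It was 1.61-fold lower with a clear gap between the groups (log2 fold change -0.69, SE 0.080, adjusted p = 0.000716). ATG2B (Entrez 55102) had 6.39, 6.37 and 6.13 with TGFβ, against 6.73, 6.60 and 6.93 untreated. Its mean was under the limit with TGFβ (6.30) and past it untreated (6.75), so ATG2B entered the test through the untreated group alone. With the limit set on the mean of all arrays it had no value, and 12 of 33 members fell. The change of -0.46 (SE 0.11, adjusted p = 0.0138) was -0.28 without replicate 3 and -0.16 with dim probe sets kept (adjusted p = 0.114).

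ATG9A (Entrez 79065), a lipid scramblase carried by vesicles that seed the membrane, was among the members that rose. It had 9.30, 8.94 and 9.14 on the TGFβ arrays, against 8.68, 8.43 and 8.88 on the untreated arrays. Its groups came close, within 0.065 of each other, because both spread over about 0.4, and in both groups array 2 was the lowest. The log2 fold change was 0.46 (SE 0.077, adjusted p = 0.00306). VMP1, a scramblase at the endoplasmic reticulum, did not pass (-0.12, SE 0.11, adjusted p = 0.372), and stood at -0.028, -0.044 and -0.29 without replicates 1, 2 and 3 (adjusted p = 0.833, 0.811 and 0.017). Its value rests on 1 probe set, since 3 more are annotated to both VMP1 and the microRNA gene MIR21, which overlap in the genome, and were not used.

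The WIPI proteins bind phosphatidylinositol 3-phosphate and moved in opposite directions. WIPI1 (Entrez 55062) had 9.45, 9.32 and 9.34 with TGFβ, against 8.91, 8.96 and 9.04 untreated. WIPI1 rose by 0.40 (SE 0.064, adjusted p = 0.00275) without overlap, with both probe sets higher. WIPI2 (Entrez 26100), which recruits ATG16L1, had 9.34, 9.26 and 9.27 with TGFβ, against 9.64, 9.58 and 9.62 untreated. It fell by 0.33 (SE 0.048, adjusted p = 0.00189). Of its 4 probe sets, 3 were lower (-0.30 to -0.59) and the brightest was at -0.068, which left no call when that one stood for the gene (adjusted p = 0.352). Without probe sets ending in _x_at or _s_at the value was -0.59.

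The conjugation enzymes and their partners were the one step in which no gene fell, against 31.0% of all genes. Of these 6 genes 4 rose, against 27.7% of all genes. Of the enzymes among them ATG7 rose, and ATG3 and ATG10 did not pass. The calls of ATG5, ATG7 and ATG12 were each lost under some alternatives. ATG16L1 (Entrez 55054), which places the conjugating complex on the membrane, changed most. Its signals were 8.37, 8.37 and 8.27 with TGFβ, against 7.72, 7.65 and 7.97 untreated. All TGFβ arrays were above the untreated ones, and ATG16L1 was 1.47-fold higher (log2 fold change 0.56, SE 0.089, adjusted p = 0.00261). The difference was 0.31 with dim probe sets kept, where a second probe set enters.

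ATG7, the E1-like enzyme that activates both ATG12 and the ATG8 proteins, rose by 0.29 (SE 0.058, adjusted p = 0.00628), with both probe sets past the limit higher. Without the filter on low signal it was 0.16 (adjusted p = 0.0925), and without replicate 2 its adjusted p was 0.0511. ATG12, the ubiquitin-like protein joined to ATG5, rose by 0.26 (SE 0.059, adjusted p = 0.0103). Its 2 probe sets past the limit were at 0.36 and 0.15, and a dim one at -0.65, so that with dim probe sets kept the sign turned (-0.043, adjusted p = 0.638). The ATG12 call was also lost with its brightest probe set alone (0.15, adjusted p = 0.0691) and without replicate 3 (adjusted p = 0.0758). ATG3 and ATG10, the E2-like enzymes for ATG8 and ATG12, stood at 0.084 (SE 0.080, adjusted p = 0.402) and 0.082 (SE 0.075, adjusted p = 0.38), with overlapping groups.

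For ATG5, the partner of ATG12, the gene value hid probe sets that passed in opposite directions. As a gene it was higher by 0.16 (SE 0.052, adjusted p = 0.0376), a call lost under 5 of 12 alternatives. One probe set averaged 11.28 ± 0.040 with TGFβ and 10.91 ± 0.026 untreated (log2, SD, n = 3), higher by 0.37 (SE 0.057, adjusted p = 0.0026). Another averaged 10.415 ± 0.029 with TGFβ and 9.985 ± 0.039 untreated, higher by 0.43 (SE 0.056, adjusted p = 0.00133). The dimmest averaged 8.57 ± 0.066 with TGFβ and 8.89 ± 0.027 untreated, lower by 0.32 on the log2 scale (SE 0.059, adjusted p = 0.00512). No other member had probe sets called both ways. Which transcripts each probe set detects was not analysed here.

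**Figure D3:**
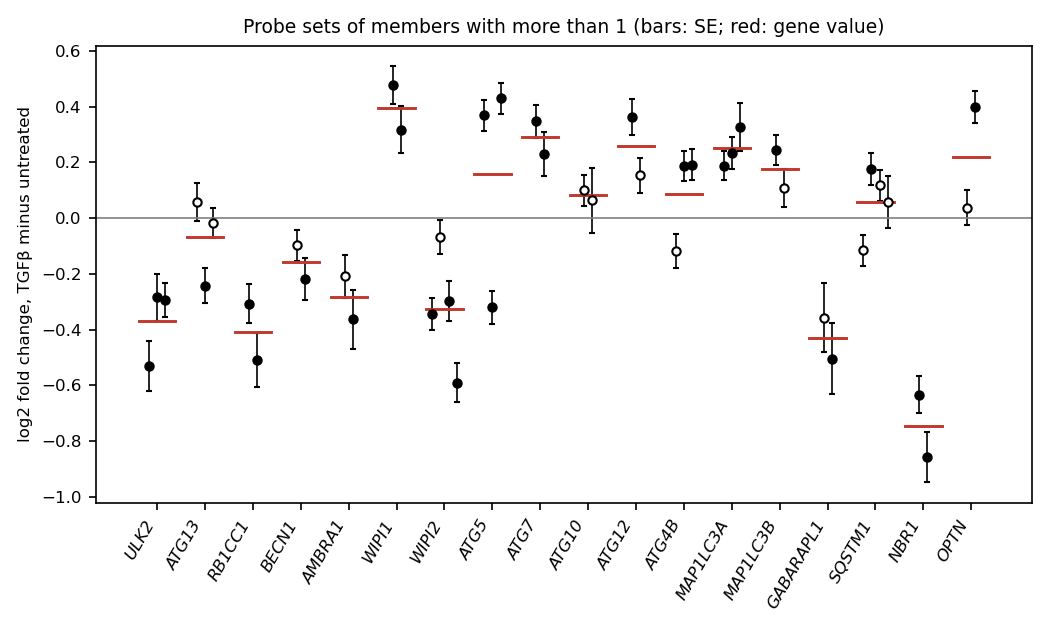
Log2 fold change of each probe set (vertical axis, TGFβ minus untreated, SE as bars) for the 18 members with more than 1 probe set past the signal limit, filled where adjusted p was under 0.05 over 19101 probe sets, with the gene value as a red line. The 3 probe sets of ATG5 lie at 0.37, -0.32 and 0.43, while both of NBR1 lie below -0.6.

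Over all probe sets of the members, 19 of 61 were higher and 21 lower, 65.6% called, against 55.1% of the 19101 probe sets tested. The paired test of the methods gave an unadjusted p under 0.05 for 27 of the 61, against 45.2% of all probe sets. After adjustment it called 8 of the 61, against 3274 of the 19101. Among called members with 1 probe set past the limit, ATG101 (adjusted p = 0.0339), GABARAPL2 (0.0412) and UVRAG (0.0464) passed that test after adjustment. ULK1 (0.0607), PIK3C3 (0.0786), ATG14 (0.0882), ATG2A (0.0765), ATG9A (0.11), ATG16L1 (0.113), ATG2B (0.197) and ATG4C (0.184) did not. The methods describe no adjustment, which was added here. By the unadjusted p of that paired test ULK1 (0.0149), ATG2A (0.0255), PIK3C3 (0.0267), ATG14 (0.0334) and ATG9A (0.0493) were under 0.05 as well. ATG16L1 (0.0519), ATG4C (0.111) and ATG2B (0.124) were not. In 14 of the 18 members with several probe sets past the limit these had the same sign. The exceptions were ATG5, ATG13, ATG4B and SQSTM1.

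The ATG4 proteases, which trim the ATG8 proteins and remove them from the membrane, showed 1 fall among the 3 measured, against 31.0% of all genes. ATG4C fell by 0.28 (SE 0.074, adjusted p = 0.0199), and without replicate 2 the difference was -0.18 (adjusted p = 0.116). ATG4A (-0.086, SE 0.048, adjusted p = 0.169) and ATG4B (0.087, SE 0.051, adjusted p = 0.186) did not pass. ATG4B had 2 probe sets that were higher, at 0.19 each, and a dimmer one at -0.12, and it passed with the brightest alone (0.19, adjusted p = 0.0213) and under the stricter filter (0.19, adjusted p = 0.0132).

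Within the ATG8 family, both LC3 genes rose, 2 of 3 GABARAP genes fell, and GABARAP itself did not pass. Over all genes 27.7% rose and 31.0% fell. MAP1LC3A (Entrez 84557) had 9.43, 9.38 and 9.50 with TGFβ, against 9.11, 9.19 and 9.27 untreated. All of its 3 probe sets were higher, and the gene rose by 0.25 (SE 0.053, adjusted p = 0.00779). MAP1LC3B (Entrez 81631), the protein followed in most assays of autophagy, had 11.96, 12.07 and 12.00 with TGFβ, against 11.83, 11.81 and 11.87 untreated. The groups lay apart by less than 0.1, and the rise of 0.18 (SE 0.053, adjusted p = 0.0298) lost its call under 6 of 12 alternatives, among them the brightest probe set alone (0.11, adjusted p = 0.209). MAP1LC3B2 is a near-identical copy, so that signal shared between them cannot be assigned with certainty.

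GABARAPL2 (Entrez 11345), also known as GATE-16, had 11.27, 11.36 and 11.32 with TGFβ, against 11.67, 11.75 and 11.64 untreated. It was 1.29-fold lower, with replicates close together in both groups (log2 fold change -0.37, SE 0.049, adjusted p = 0.00124). GABARAPL1 (Entrez 23710) had 7.02, 6.87 and 6.71 with TGFβ, against 7.18, 7.21 and 7.50 untreated. The groups lay apart, with a difference of -0.43 (SE 0.12, adjusted p = 0.0209), which was -0.25 without replicate 3 (adjusted p = 0.0434). A further probe set is annotated to GABARAPL1 and its pseudogene GABARAPL3 together and was not used. GABARAP (Entrez 11337) had 12.57, 12.61 and 12.64 with TGFβ, against 12.63, 12.64 and 12.64 untreated, with overlap and no call (-0.032, SE 0.049, adjusted p = 0.593).

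The 3 cargo receptors went 3 ways. NBR1 (Entrez 4077), which gathers ubiquitinated cargo, had the largest fall of the list. It had 8.69, 8.48 and 8.47 with TGFβ, against 9.25, 9.34 and 9.30 untreated. The groups were far apart for their spread, and NBR1 was 1.68-fold lower (log2 fold change -0.75, SE 0.072, adjusted p = 0.000366). The probe sets past the limit gave -0.63 and -0.86, and the mean with 2 dim ones kept was -0.34 (adjusted p = 0.00469). In the paired test of the methods the probe sets past the limit had unadjusted p = 0.0114 and 0.0214, and adjusted p = 0.0548 and 0.071.

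SQSTM1 (Entrez 8878), the receptor p62 whose protein level is widely used to judge autophagic flux, did not pass. Its signals were 9.39, 9.41 and 9.43 with TGFβ, against 9.43, 9.33 and 9.30 untreated, and the groups overlapped (0.059, SE 0.055, adjusted p = 0.39). Its 4 probe sets ranged from -0.12 to 0.18, and the sign turned when the brightest stood for the gene (-0.12, adjusted p = 0.115). OPTN (Entrez 10133), the receptor optineurin, which acts on damaged mitochondria and bacteria, had 10.24, 10.10 and 10.17 with TGFβ, against 9.95, 9.93 and 9.98 untreated. OPTN was higher by 0.22 (SE 0.052, adjusted p = 0.0124), from 1 probe set at 0.40 and another at 0.037. The call was lost without probe sets ending in _x_at or _s_at (0.037, adjusted p = 0.634), without replicate 2 (adjusted p = 0.0503) and without replicate 3 (adjusted p = 0.0504).

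Short stretches of promoter are shown for measured members that hold the letters of either of 2 elements, to set the changes beside the sequence. These are CACGTG, the core of the element bound by the lysosome and autophagy factor TFEB and by other E-box factors, and CAGACA, a form of the element bound by SMAD proteins, which carry the TGFβ signal. Both strands of the 250 bases before each start in the RefSeq promoter table (GRCh38.p14) were searched, and the letters of the 2 motifs do not overlap each other in these stretches. Capitals mark the match, which reads TGTCTG where CAGACA is on the opposite strand.
ATG14: aacaaaatccCACGTGactggctctcctct
ATG3: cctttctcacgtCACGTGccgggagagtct
ATG12: cgaccgagcaCAGACAcgttgcccaccgct
AMBRA1: cctcctttgaTGTCTGgggcgttcttgtat
PIK3R4: agtgaaggcgTGTCTGagcagattctaggg

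The stretches lie at chr14:55411832-55411861, chr3:112561963-112561992, chr5:115841773-115841802, chr11:46594044-46594073 and chr3:130747031-130747060, all on the minus strand. Of 35 members 31 had a promoter in the table. CACGTG was found in 2 of their 38 promoters (5.26%), those of ATG14, which fell, and ATG3, which did not pass, against 6.34% of all 35116 promoters. CAGACA was found in 4 of 38 (10.5%), belonging to ATG12, which rose, AMBRA1, which fell and had 3 matches in its promoters (1 is shown), and PIK3R4, which did not pass, against 13.6% of all promoters. No match was found for ULK1, ATG101, NBR1 and ATG2A, the members with the largest changes. The table held promoters for 10 members that rose and 12 that fell. Those without a promoter are not named here, so no match can also mean that no promoter was searched. A match is only a match of letters, and binding was not measured.

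Beyond the members, 81 of 91 further genes of the pathway were measured, and 20 rose and 28 fell (59.3% called, median -0.063), against 58.7% of all genes. Without replicate 2 the falls numbered 18 (22.2%), against 21.7% of all genes. Among other cargo receptors and factors of selective autophagy, 1 of 19 rose and 9 fell (52.6% called). Of all genes 27.7% were higher and 31.0% lower. BNIP3, a receptor for mitochondria, was 1.66-fold lower (log2 fold change -0.73, SE 0.050). CALCOCO1, a receptor for the endoplasmic reticulum, was at -0.48 (SE 0.096), and PINK1, the kinase that marks damaged mitochondria, at -0.41 (SE 0.061). SEC62, another receptor for the endoplasmic reticulum, was at -0.36 (SE 0.050), a call lost with its brightest probe set alone (-0.079, adjusted p = 0.356). It was -0.66 without probe sets ending in _x_at or _s_at.

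Of 16 measured genes for the fusion of autophagosomes with lysosomes, 2 rose and 5 fell (43.8% called, against 58.7% of all genes). YKT6, a SNARE of this fusion, was 1.86-fold higher (0.90, SE 0.053). The SNAREs VAMP8 (-0.43, SE 0.053) and STX17 were lower, while the SNARE SNAP29 did not pass (0.022, SE 0.073, adjusted p = 0.817). STX17 was at -0.35 (SE 0.049), and at -0.22 with the signal limit set on the mean of the 6 arrays. Without probe sets ending in _x_at or _s_at it was at -0.62. VPS41, a subunit of the tethering complex HOPS, was at -0.39 (SE 0.084), and at -0.25 with its brightest probe set alone. Of 8 further phagophore factors 3 rose and 2 fell (62.5% called). These were TMEM41B (0.26, SE 0.050), NRBF2 (0.25, SE 0.059) and SH3GLB1 (0.24, SE 0.049, and 0.48 with its brightest probe set), against TRAPPC8 (-0.29, SE 0.074) and WDR45, a relative of the WIPI proteins (-0.20, SE 0.064). The TRAPPC8 call was lost without replicate 2 (adjusted p = 0.0951) and without replicate 3 (adjusted p = 0.0605).

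The kinase MTORC1, which inhibits the ULK1 complex when amino acids are plentiful, and its regulators gave 9 rises and 6 falls among 24 measured. The share called was 62.5%, against 58.7% of all genes. DEPTOR, an inhibitor within the complex, was 2.57-fold lower (-1.36, SE 0.053, and -0.70 with dim probe sets kept). CASTOR1, the arginine sensor, was 2.38-fold higher (1.25, SE 0.050) and SESN2, a leucine sensor that restrains MTORC1, 1.82-fold higher (0.87, SE 0.057). RRAGB, a GTPase that brings MTORC1 to the lysosome, was lower (-0.75, SE 0.064). Among 8 genes of AMPK, which activates ULK1 when energy is low, and its upstream kinases, 2 rose and 4 fell. The shares of all genes were 27.7% and 31.0%. PRKAB2, a regulatory subunit, was 2.02-fold higher (1.02, SE 0.056). The catalytic PRKAA2 was lower (-0.34, SE 0.071, and -0.092 with dim probe sets kept, adjusted p = 0.35), as were PRKAB1 (-0.24, SE 0.048) and the upstream kinase STK11. For STK11 the value was -0.22 (SE 0.047), -0.53 with its brightest probe set, and its call was lost without replicate 2 (adjusted p = 0.0568).

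Of 6 measured transcription factors of autophagy genes, 3 rose and 2 fell (83.3% called, against 58.7% of all genes). TFEB, which drives lysosome and autophagy genes, was 1.52-fold higher (0.61, SE 0.064). FOXO1 was higher (0.51, SE 0.083), while MITF (-0.47, SE 0.056, and -0.28 with dim probe sets kept) and FOXO3 (-0.43, SE 0.054) were lower. The adjusted p of the called genes named from these 6 lists ranged from 1.4e-05 to 0.0354.

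**Figure D4:**
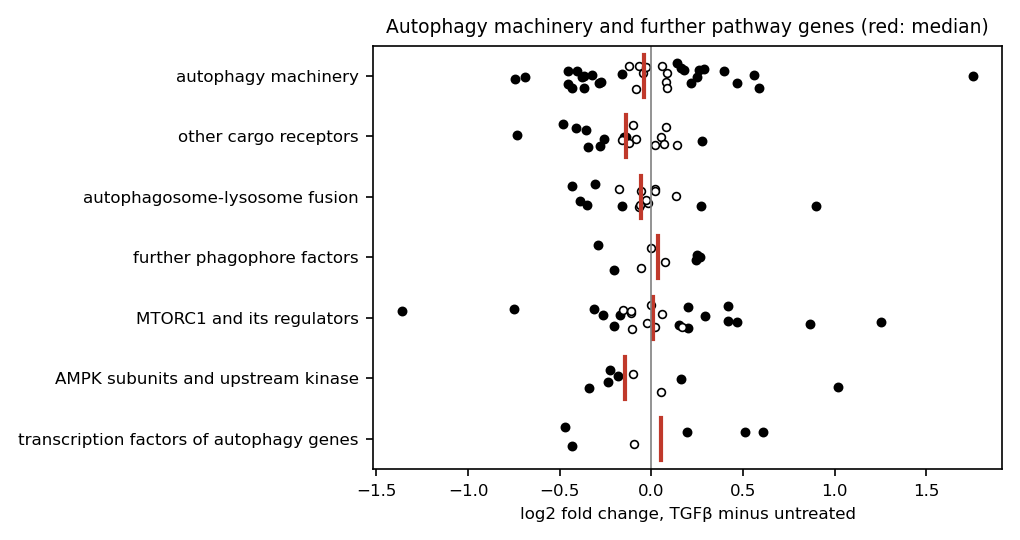
Log2 fold change of the 34 measured members and of the measured genes of 6 further lists of the pathway (horizontal axis, TGFβ minus untreated), 1 point per gene, filled where adjusted p was under 0.05, with medians in red. All 7 medians lie between -0.14 and 0.05, and points lie on both sides of 0 in every list.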

How the data were processed

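The deposited table held log2 values, 1 per sample and probe set of an Affymetrix array for human genes (HG-U133 Plus 2), which the authors made from scanned arrays of biotinylated cRNA. The unit was read from the values. The software and any normalisation between arrays are not given in the sources used here. Probe sets were named through the platform annotation and symbols updated through the RefSeq gene table (19735 of 19777 Entrez IDs matched). Of 54613 probe sets that are not controls, 41091 named 1 gene, 1801 several and 11721 none. Removing probe sets whose mean log2 value was under 6.64 in each group kept 19101 probe sets and 10115 genes. TGFβ minus untreated was tested with limma 3.58.1 in R 4.3.3 (two-sided, Benjamini-Hochberg over all genes or all probe sets), with the replicate number as a block after the paired test of the methods, leaving 2 residual and 4.12 prior degrees of freedom. SE is that of the model. The number of arrays limits the precision. The workflow was tested on simulated data, with 50 changes of each size planted among 10115 genes. It recovered 9 at 1.2-fold, 39 at 1.5-fold, 49 at 2-fold and 50 at 4-fold, and 6 of its 153 calls were false. Far fewer genes changed there than were called in these data, so the recovery may differ here.

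The members and lists were chosen with earlier results of these data known. Values on every array are given for members that passed with a log2 fold change of at least 0.3 in size and moved alike in all 3 same-numbered pairs, and for all ATG8 genes and cargo receptors. Of each further list, up to 4 called genes with the largest changes are named. WDR45 was added after its value was seen, as was SNAP29, which did not pass. Alternatives covered the block, 3 filters on low signal (none, a limit of 200, the mean over all arrays), median centring, quantile normalisation, a constant of 16 added before the logarithm, an intensity trend in the variance, probe sets without _x_at or _s_at names, the brightest probe set, each replicate left out and the paired test of the methods. A planned comparison of ATG8 proteins was not run. Plots used Python 3.11.15 with matplotlib 3.10.9.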

Additional observations from a re-analysis of the deposited data

How the results depend on the processing

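Of the 25 called members, 14 (6 higher, 8 lower) kept their call and direction under every alternative fitted with limma that gave them a value, and 11 lost the call at least once. The paired test of the methods, run on probe sets, is not in that count. Without the filter on low signal 7 of 35 members were higher and 10 lower, against 12.7% and 14.1% of all genes. Without probe sets ending in _x_at or _s_at, which left 21 members, 7317 genes and 53 further pathway genes, 5 members were higher and 8 lower, 1794 of all genes were higher, and 10 of the further genes were higher and 18 lower; fewer genes were tested there. With a replicate left out, 7 to 11 members were higher and 11 to 14 lower, 2090 to 2802 of all genes were higher and 2190 to 3656 lower, and 15 to 18 further genes were higher and 18 to 33 lower. The paired test of the methods called 27 of 61 member probe sets at an unadjusted p under 0.05 (45.2% of all probe sets). After adjustment it called 8 (3274 of all 19101), against 40 with limma. The 8 were of ATG101, ATG4B, ATG5, GABARAPL2, MAP1LC3A, MAP1LC3B, OPTN and UVRAG. Of the 14 members above, only ATG101, GABARAPL2 and MAP1LC3A had a probe set among them. ULK1, NBR1, ULK2, RB1CC1, PIK3C3, ATG14, ATG2A, ATG9A, ATG16L1, WIPI1 and GABARAPL1 had none. The methods describe no such adjustment, and before it the probe sets of ULK1 and NBR1 past the limit had p under 0.05. The sign turned for ATG12 without the filter on low signal (-0.043), for SQSTM1 with its brightest probe set (-0.12), for ATG10 without the filter (-0.053), and with a replicate left out for PIK3R4 (from -0.169 to 0.018, and 0.014 without replicate 2), ATG3 (from -0.029 without replicate 1 to 0.149) and ATG10 (from -0.008 without replicate 1 to 0.167). The cause was not tested. Without the replicate block 12 members were higher and 13 lower, the same 25 calls, while all genes gave 2971 and 3294. Deviations of same-numbered arrays from their group means correlated at -0.289, 0.242 and 0.0597 over genes, so the numbers do not show a pairing. Signals near the limit, as for ATG2B, are the least certain.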
